A study of Homo sapiens with 5 samples.

Results

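The UGT2B locus of VCaP cells was described from the peaks of 2 chromatin marks, H3K27ac (an acetyl group on lysine 27 of histone H3) and H3K4me1 (a single methyl group on its lysine 4). Members were all intervals of the 4 deposited peak lists that overlapped chromosome 4 from 69300000 to 70550000 in build hg19, a stretch of 1.25 Mb that holds UGT2B17, UGT2B15, UGT2B10, UGT2B7, UGT2B11, UGT2B28 and UGT2B4. There were 269 such intervals among 363159 on the autosomes and chromosome X. H3K27ac replicates 1 and 2 gave 37 and 49, and H3K4me1 replicates 1 and 2 gave 90 and 93. VCaP (Vcap in the labels) is an established human prostate cancer line. It was grown in serum-containing medium, and the labels name no treatment, genotype change or time, so each mark forms 1 group of 2 libraries. Whether the replicates are separate cultures is not stated, and p-values then measure only the spread between these libraries, which may be technical. An input library is listed and was not analysed here. Depth per library is unknown, because the lists hold positions and peak names and neither read numbers nor peak heights. Positions in hg19 were at hand for the 7 UGT2B genes alone, so the line was not checked against marker genes of prostate cells.

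UGT2B enzymes are UDP-glucuronosyltransferases of the endoplasmic reticulum. They attach glucuronic acid to lipophilic molecules, which makes these soluble and ready for excretion. UGT2B15 and UGT2B17 are the members best known in prostate, where they inactivate dihydrotestosterone and its metabolites. H3K27ac marks active promoters and enhancers, whereas H3K4me1 marks enhancers whether active or not and the flanks of promoters. The genes arose by repeated duplication and remain similar in sequence, and how reads that align to several copies were treated is not given in the sources used here. Intervals at these genes are therefore uncertain wherever copies are near-identical.

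The similarity is visible in the 250 bases before the annotated start of those members whose promoters could be matched by symbol in the RefSeq table of build GRCh38.p14, which were 4 of 7 (UGT2B15, UGT2B10, UGT2B7 and UGT2B11). They are shown because their likeness bears on how far peaks at these genes can be told apart. Positions of these sequences belong to GRCh38.p14 and cannot be set beside the hg19 positions of the peaks. The windows are chr4:68670653-68670902 on the minus strand for UGT2B15, chr4:68815744-68815993 on the plus strand for UGT2B10, chr4:69096224-69096473 on the plus strand for UGT2B7 and chr4:69214749-69214998 on the minus strand for UGT2B11. Each is written 5′ to 3′ towards the gene, with capitals for the runs of at least 8 bases that all 4 sequences hold.
UGT2B15: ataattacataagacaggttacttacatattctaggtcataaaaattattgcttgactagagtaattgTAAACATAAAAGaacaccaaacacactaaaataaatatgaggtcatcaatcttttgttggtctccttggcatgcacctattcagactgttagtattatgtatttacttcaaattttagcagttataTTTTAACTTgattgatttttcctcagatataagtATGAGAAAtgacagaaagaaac
UGT2B10: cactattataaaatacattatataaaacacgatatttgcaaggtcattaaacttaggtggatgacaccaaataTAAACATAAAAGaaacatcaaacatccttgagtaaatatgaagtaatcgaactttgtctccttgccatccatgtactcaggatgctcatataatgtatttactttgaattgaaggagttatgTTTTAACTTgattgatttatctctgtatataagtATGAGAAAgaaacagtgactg
UGT2B7: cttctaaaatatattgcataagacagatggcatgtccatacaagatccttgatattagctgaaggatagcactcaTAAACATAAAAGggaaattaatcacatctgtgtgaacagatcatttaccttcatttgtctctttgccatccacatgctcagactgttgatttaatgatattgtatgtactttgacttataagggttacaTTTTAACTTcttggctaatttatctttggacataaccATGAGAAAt
UGT2B11: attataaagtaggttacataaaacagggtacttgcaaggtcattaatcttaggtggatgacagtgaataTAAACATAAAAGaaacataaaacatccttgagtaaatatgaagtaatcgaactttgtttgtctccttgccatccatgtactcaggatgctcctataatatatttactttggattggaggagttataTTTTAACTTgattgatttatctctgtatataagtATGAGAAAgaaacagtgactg
The UGT2B10 and UGT2B11 sequences were the most alike, with 229 of 246 aligned bases identical (93.1%). UGT2B15 matched them at 79.4 and 79.7% of aligned bases, and UGT2B7 matched the other sequences at 68 to 73%.

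The longest run common to all 4 promoters was TAAACATAAAAG, a stretch of 12 bases that began at -182 in UGT2B15, -181 in UGT2B11, -177 in UGT2B10 and -175 in UGT2B7, counted back from the annotated start. On either strand it was present in 6 of 35116 promoters of the same length (0.0171%), and the other 2 were those of GABRG3-AS1 and LOC105377188. The run was found by comparing the members with each other, so its presence in all of them is a description. Only the UGT2B15 promoter held TGTTTAC, a core of FOXA sites, which in the printed strand reads GTAAACA and overlaps the shared run. This heptamer was present in 2.98% of all promoters. In UGT2B10, UGT2B7 and UGT2B11 the base before the run is A, so they differ from GTAAACA there in its first base alone. Variants of the core other than TGTTTAC and TGTTTGC were not searched. UGT2B15 alone also held the hexamer TGTTCT, found in androgen receptor elements and present in 12.4% of promoters, here on the opposite strand. TATAAA occurred 3 times in the UGT2B10 and 2 times in the UGT2B11 promoter (10.7% of promoters had it), and neither TGTTTGC (FOXA) nor GTTAAT (HNF1) was matched in any of the 4, against 3.23 and 6.23% of all promoters. All motifs were searched on both strands. The 4 promoters were rich in A and T, with 28.4 to 32.8% G and C against a median of 58% over all promoters.

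Both marks were dense in the locus. Peaks numbered 29.6 and 39.2 per Mb for H3K27ac replicates 1 and 2, against 13.8 and 16.3 over chromosome 4 and 18.6 and 22.0 over all chromosomes used. H3K4me1 had 72.0 and 74.4 peaks per Mb, against 34.2 and 37.4 on chromosome 4 and 40.2 and 42.5 overall. Among 2240 windows of the same length laid end to end, the locus held more peaks than 75.4 and 81.9% of windows for H3K27ac and 85.5 and 86.3% for H3K4me1. It was thus in the upper part of the distribution for both marks in every list, and 307 to 550 windows held at least as many peaks. The medians were 22 and 25 peaks per window for H3K27ac and 51 and 56 for H3K4me1.

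**Figure D1:**
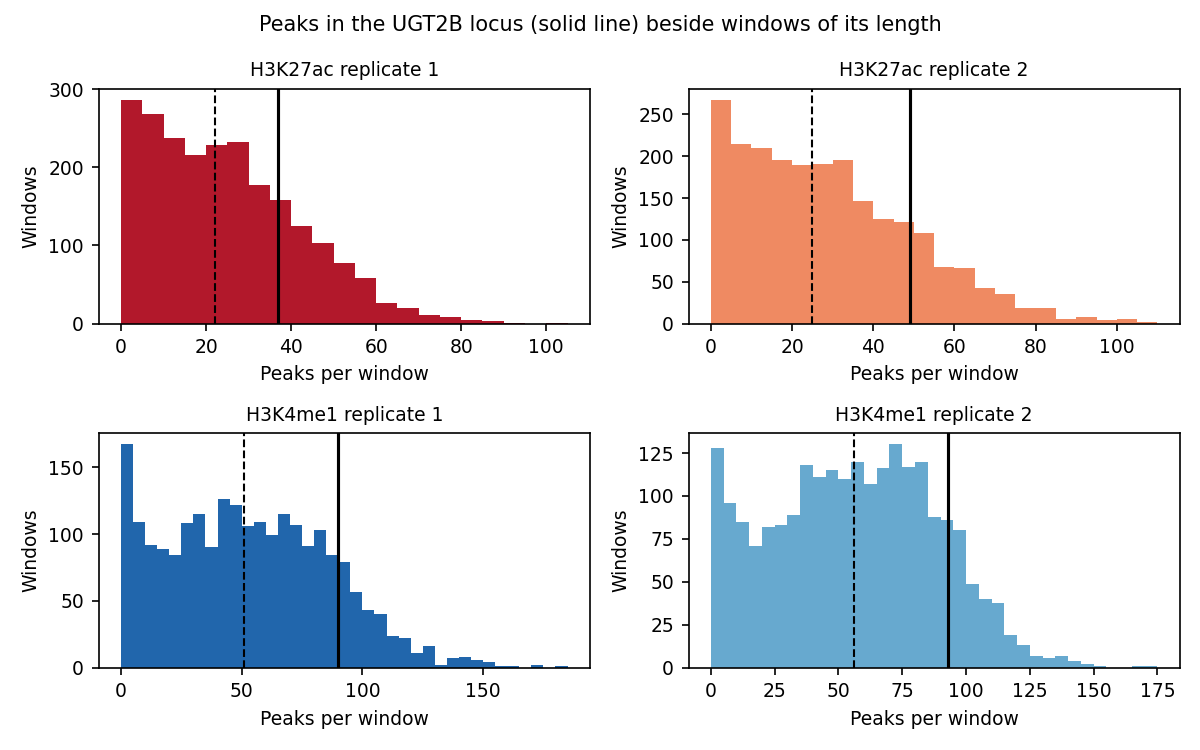
Number of windows (y axis) by peaks per window (x axis) in each list, for windows of the length of the UGT2B locus. The solid line is the locus (37, 49, 90 and 93 peaks) and the dashed line the median window. In all 4 lists the locus lies right of the median.

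H3K4me1 gave more peaks than H3K27ac, with 91.5 ± 2.12 against 43 ± 8.49 (mean ± SD, n = 2 libraries each), a ratio of 2.13. The lists did not overlap in number. An exact permutation test, two-sided, gave p = 0.33, below which a comparison of 2 with 2 libraries cannot go, and 0.667 after Benjamini-Hochberg adjustment over 3 comparisons of the marks. Peaks covered 58.9 and 52.2 kb of the locus for H3K27ac and 55.9 and 90.7 kb for H3K4me1, so the lists overlapped in length (exact permutation p = 0.667, n = 2 per mark). H3K27ac peaks had median widths of 1301 bp in replicate 1 and 729 bp in replicate 2. The median widths of H3K4me1 peaks, 488 and 757 bp, overlapped these (exact permutation p = 0.667, n = 2 per mark). The adjusted p was 0.667 for both. Counted over all chromosomes used, H3K4me1 replicates 1 and 2 also had more peaks (118231 and 125320) than H3K27ac replicates 1 and 2 (54763 and 64845). The excess of H3K4me1 in peak number was thus not particular to the locus. Covered shares of all chromosomes used overlapped between the marks too. H3K4me1 replicates 1 and 2 covered 2.46 and 3.81%, beside 2.49 and 2.30% in H3K27ac.

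**Figure D2:**
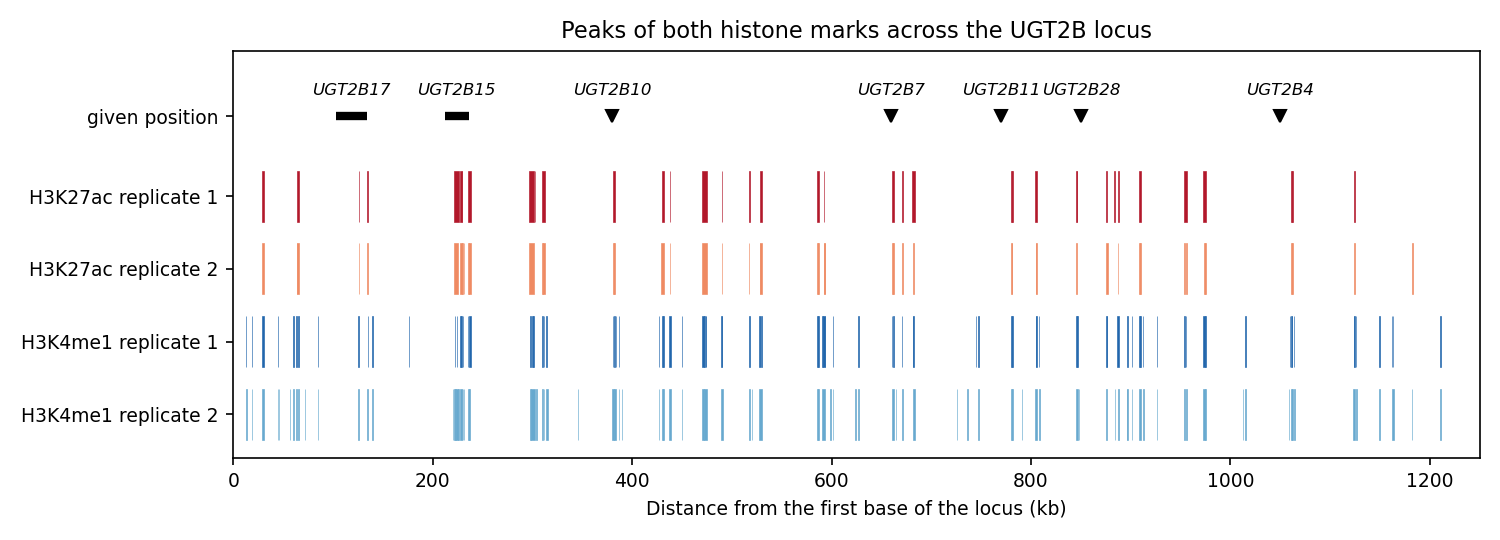
Peaks of each list (rows) along the UGT2B locus, by distance from its first base (x axis, kb). Black bars are the given spans of UGT2B17 and UGT2B15 and triangles the approximate positions of the other genes. Most H3K27ac peaks recur at the same place in both H3K27ac lists and lie over H3K4me1 peaks.

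Libraries of a mark matched well in the locus. Overlapping peaks of a mark were joined into merged regions, and those to which both libraries contributed are called replicated. For H3K27ac, 33 of 43 merged regions were replicated (76.7%, exact 95% interval 61.4 to 88.2%), beside 75% of all merged regions. For H3K4me1, 68 of 97 were replicated (70.1%, 60.0 to 79.0%), beside 61.6%. Peaks with a partner in the other library made up 89.2 and 87.8% of H3K27ac replicates 1 and 2 (87.9 and 86% over the whole lists) and 95.6 and 73.1% of H3K4me1 replicates 1 and 2 (88.3 and 68.7%). These shares were near those of the whole lists, apart from H3K4me1 replicate 1, whose interval of 89.0 to 98.8% lay just above. That interval took in the 89.1% of this list on chromosome 4. Intervals cover counting error over peaks only.

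Nearly all replicated H3K27ac regions of the locus overlapped replicated H3K4me1. They were 32 of 33 (97.0%, 84.2 to 99.9%), beside 73.5% of all 47128 H3K27ac regions and 78.2% of those on chromosome 4. The exception lay inside the given span of UGT2B15 from 69529630 to 69530100 and carried a peak of H3K4me1 replicate 2 only. The UGT2B17 region from 69426015 to 69426396 counted as overlapping, although H3K4me1 replicate 2 alone covered its bases. Among 1065 windows of the same length with at least 20 H3K27ac regions, 28 had a share as high, and the median was 76.9%. H3K4me1 covered 82.5% of the length of these regions, against 51.7% of all H3K27ac regions. In the other direction, 43 of 68 H3K4me1 regions overlapped H3K27ac (63.2%, 50.7 to 74.6%), beside 47.1% of all 84838, and 168 of 1631 windows had a share as high.

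In each pair of lists the share was above that of the whole list, by more than the counting interval in 7 of 8 pairs. Of H3K27ac replicate 1 peaks, 86.5 and 97.3% overlapped H3K4me1 replicates 1 and 2, beside 71.7 and 79.8% over the whole list. The first of these has an interval of 71.2 to 95.5%, which takes in the whole list and the 74.1% of chromosome 4. Of H3K27ac replicate 2 peaks, 91.8 and 98.0% did so, beside 69.5 and 77.9%. Of H3K4me1 replicate 1 peaks, 60 and 61.1% overlapped H3K27ac replicates 1 and 2, beside 43.8 and 43.5%, and of H3K4me1 replicate 2 peaks 51.6 and 50.5%, beside 39.6% for each. No test was made over regions, which are not replicates of a condition.

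Of the 2 members best known for inactivating androgens in prostate, UGT2B15 carried far more of both marks than UGT2B17. H3K27ac replicates 1 and 2 covered 32.6 and 30.2% of the given span of UGT2B15 (24 kb, 69.512 to 69.536 Mb). They covered 1.23 and 0.916% of the span of UGT2B17 (31 kb, 69.403 to 69.434 Mb). H3K4me1 replicates 1 and 2 covered 12.4 and 30.7% of UGT2B15 and 0.923 and 3.53% of UGT2B17. UGT2B15 was thus higher in all 4 lists. The span ends are rounded, and an H3K27ac region of UGT2B17 began 0.038 kb beyond its span. With 10 kb added on both sides, H3K27ac covered 22.7 and 21.3% at UGT2B15 and 3.03 and 1.99% at UGT2B17. H3K4me1 then covered 9.44 and 20.6% at UGT2B15 and 2.23 and 5.37% at UGT2B17. The number of gene copies in these cells was not measured here, and how reads that align to several copies were placed is not known. The part of either in the difference was not tested. No UGT2B17 promoter was among the sequences compared.

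UGT2B15 had 4 replicated H3K27ac regions, and all of them touched its span. The widest of these ran from 69521201 to 69526231 with 5031 bp in replicate 1 and 4071 bp in replicate 2. H3K4me1 covered 863 bp of it in replicate 1 and 3393 bp in replicate 2, as regions from 69522205 to 69523269 and from 69523566 to 69525359. A second region, from 69527313 to 69529308, had 1891 and 1966 bp of H3K27ac and 1459 and 1906 bp of H3K4me1, and its H3K4me1 region ran from 69527336 to 69529241. The narrow region from 69529630 to 69530100 is the one without replicated H3K4me1, which lay next to it from 69530267 to 69530667. The last region ran from 69535347 to 69538313 across the upper end of the span, where the gene begins, being on the minus strand. It held 2820 and 2722 bp of H3K27ac, and H3K4me1 from 69535564 to 69536392 and from 69536658 to 69538051.

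UGT2B17 had 2 replicated H3K27ac regions within 25 kb. One lay inside the span from 69426015 to 69426396, with 382 and 284 bp in replicates 1 and 2, under an H3K4me1 region from 69425476 to 69426570. H3K4me1 replicate 2 alone covered it, over 382 bp, against 0 bp in H3K4me1 replicate 1. The other lay just above the upper end of the span and ran from 69434038 to 69435201, with 1164 and 729 bp. H3K4me1 lay there from 69434118 to 69435296, with 405 bp in replicate 1 and 1179 bp in replicate 2. H3K4me1 without H3K27ac lay from 69384852 to 69385402 and from 69439351 to 69439907. No other H3K27ac region lay within 25 kb, and no H3K27ac peak of either list fell in the 86.0 kb from 69435202 to 69521200 that separate it from the UGT2B15 regions.

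UGT2B28, an enzyme that also acts on androgens, was marked mainly by H3K4me1. The H3K4me1 region nearest its position (about 70.15 Mb) ran from 70144686 to 70147018, with 1739 and 2333 bp in replicates 1 and 2. It was the fourth widest of the locus. H3K27ac covered 748 bp of it in replicate 1 and 243 bp in replicate 2, and the replicated H3K27ac region, from 70145518 to 70145845, was the narrowest of all 33 with 328 bp. A second H3K27ac region, from 70174973 to 70176863 with H3K4me1 from 70174955 to 70176600, began at the 25 kb limit and lay almost wholly beyond it.

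UGT2B7, an enzyme of broad range that conjugates opioids and steroids, had 3 regions of each mark within 25 kb of its position (about 69.96 Mb). The nearest H3K27ac region ran from 69960753 to 69962931, with 2179 bp in replicate 1 and 1718 bp in replicate 2, and H3K4me1 from 69960781 to 69963069 covered 98.7% of it. The next, from 69970710 to 69971337, was narrow, with 321 and 513 bp, and lay on H3K4me1 from 69970388 to 69971209. The last, from 69981137 to 69983191, held 2055 and 1666 bp and lay on H3K4me1 from 69981243 to 69983233. Replicated H3K4me1 regions, which join both lists, thus covered at least 79.6% of each of these H3K27ac regions. Of the narrow one, 628 bp wide, H3K4me1 replicate 1 covered 140 bp and replicate 2 covered 500 bp.

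UGT2B10, which conjugates nitrogen-containing compounds such as nicotine, had 1 H3K27ac region within 25 kb of its position (about 69.68 Mb). It ran from 69680731 to 69682958, with 2017 bp as 1 peak in replicate 1 and 1912 bp as 2 peaks in replicate 2. H3K4me1 reached further to both sides, from 69679406 to 69681408 and from 69681721 to 69683969, and a further H3K4me1 region from 69686542 to 69687155 had no H3K27ac.

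UGT2B11, a less well characterised member, had a pair of short H3K27ac regions, from 70079814 to 70080491 and from 70080863 to 70081458. They held 678 and 596 bp in replicate 1 and 645 and 572 bp in replicate 2. H3K4me1 lay beneath and beyond them, from 70079524 to 70080562 and from 70080873 to 70082300, and without H3K27ac from 70047272 to 70047732. UGT2B4, known for conjugating bile acids in liver, showed a similar pair about 11 kb above its approximate position (10.955 kb for the nearer region). Its H3K27ac regions ran from 70360955 to 70361651 and from 70361901 to 70362277, with 697 and 377 bp in replicate 1 and 383 and 324 bp in replicate 2. H3K4me1 regions ran from 70360959 to 70361619, from 70361877 to 70362499 and, without H3K27ac, from 70363620 to 70364434.

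All 7 gene positions had a replicated region of each mark within 25 kb, beside 34.9% of 60687 windows of 50 kb on the chromosomes used and 19 of 25 such windows in the locus (76%). Within 10 kb, 6 of 7 had both, the exception being UGT2B4, beside 18.7% of windows of 20 kb and 25 of 62 in the locus (40.3%). These windows match the 5 genes given as points, and the counts were not tested. Positions other than those of UGT2B17 and UGT2B15 are known here only to about 10 kb, so that gene starts and gene bodies cannot be told apart from these data at the remaining 5 genes. Within 25 kb, H3K27ac covered 9.69 ± 0.439 kb at UGT2B15 (mean ± SD, n = 2 libraries), 4.23 ± 0.465 kb at UGT2B7 and 1.96 ± 0.0742 kb at UGT2B10. UGT2B17, UGT2B11, UGT2B4 and UGT2B28 followed with 1.28 ± 0.377, 1.25 ± 0.0403, 0.890 ± 0.260 and 0.510 ± 0.377 kb. At this radius the libraries of the first 3 genes did not overlap with those of any other gene, and UGT2B17 overlapped UGT2B11 and UGT2B4, as did UGT2B28 with UGT2B4. The windows of UGT2B15 and UGT2B17 are longer than those of the other genes by their spans of 24 and 31 kb.

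UGT2B15 also led for H3K4me1 with 6.60 ± 3.46 kb, but there the libraries differed most, with 4.15 and 9.04 kb. UGT2B7 had 4.65 ± 1.33 and UGT2B10 3.70 ± 1.57 kb. UGT2B11, UGT2B17, UGT2B28 and UGT2B4 had 2.52 ± 1.20, 2.22 ± 1.19, 2.22 ± 0.610 and 2.00 ± 0.544 kb, and neighbours in this order did not differ beyond their spread. H3K4me1 replicate 2 covered more than replicate 1 at all 7 genes, as it did over the whole locus. With a radius of 10 kb, UGT2B15 still stood apart for H3K27ac, but UGT2B7 fell to 1.95 ± 0.326 kb and overlapped UGT2B10 (1.96 ± 0.0742 kb). UGT2B11 and UGT2B4, whose nearest regions lie about 10 kb from their positions, dropped to 0.173 ± 0.0198 kb and to 0. Their positions are known only to about 10 kb, so these drops need not reflect distance from the genes themselves. With a radius of 50 kb the order below UGT2B15 changed for H3K27ac, where UGT2B28 came second with 4.84 ± 1.20 kb, and UGT2B28 led for H3K4me1 with 8.19 ± 1.83 kb against 6.73 ± 3.28 kb at UGT2B15.

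The balance of the marks differed among the genes. Within 25 kb of UGT2B15, both H3K27ac lists (10.0 and 9.38 kb) covered more than both H3K4me1 lists (4.15 and 9.04 kb), as in 27.3% of 21804 windows of 50 kb with peaks of all lists. Over the span of the gene alone the marks overlapped, with 7.84 and 7.25 kb of H3K27ac and 2.97 and 7.36 kb of H3K4me1. At 4 of 7 genes, UGT2B10, UGT2B11, UGT2B28 and UGT2B4, both H3K4me1 lists covered more than both H3K27ac lists within 25 kb, beside 42.7% of windows. Within 10 kb this no longer held at UGT2B11, where the lists overlapped. UGT2B28 had, within 25 kb, 0.776 and 0.243 kb of H3K27ac and 1.79 and 2.65 kb of H3K4me1. At UGT2B17 and UGT2B7 the lists of the marks overlapped. With so few genes, these counts are a description of the locus.

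**Figure D3:**
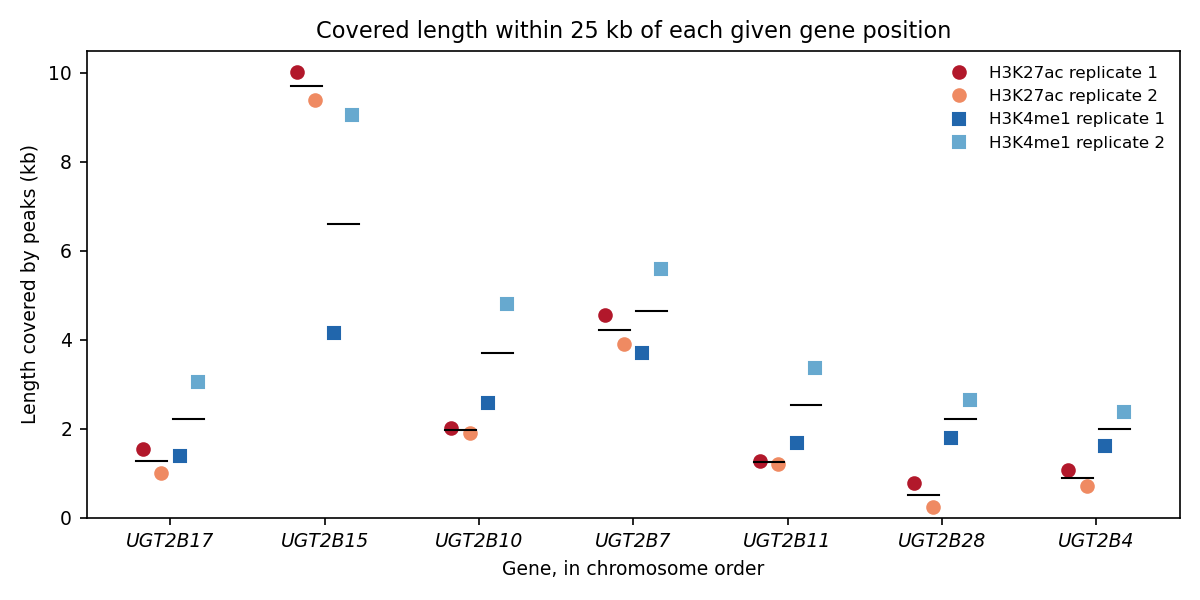
Length covered by peaks (y axis, kb) within 25 kb of each given gene position, for each list. Points are libraries and short lines the mean of each mark (n = 2). UGT2B15 stands highest for H3K27ac (10.0 and 9.38 kb), and UGT2B28 lowest (0.776 and 0.243 kb).

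Short gaps split some of the peak clusters closest to the genes. For each gene, the cluster of peaks of all 4 lists nearest its position (for UGT2B17 and UGT2B15, the upper end of the span) was inspected for gaps of at most 1000 bp, a limit chosen after seeing the data. At UGT2B11 all lists were split at the same place, with gaps of 371 and 391 bp in H3K27ac replicates 1 and 2 and of 447 and 310 bp in H3K4me1 replicates 1 and 2. At UGT2B4 the gaps were 249 and 322 bp in H3K27ac and 276 and 257 bp in H3K4me1. The bases left free in all 4 lists ran from 70080563 to 70080862 at UGT2B11 and from 70361652 to 70361876 at UGT2B4.

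At UGT2B10, H3K4me1 replicates 1 and 2 were split by 400 and 316 bp at the same place (replicate 1 had a further gap of 943 bp) and H3K27ac replicate 2 by 247 bp, while H3K27ac replicate 1 ran across. UGT2B15 had the same arrangement at its upper end, with gaps of 948 and 265 bp in H3K4me1 and of 177 bp in H3K27ac replicate 2. UGT2B7 was split in H3K27ac replicate 2 (280 bp) and H3K4me1 replicate 1 (420 bp), and UGT2B28 in H3K27ac replicate 1 (265 bp) and H3K4me1 replicate 1 (464 bp). UGT2B17 had no gap in any list. A gap shared by both H3K4me1 lists was thus present at 4 of 7 genes, beside 29.8% of 31190 clusters of all lists on the chromosomes used, and one shared by all lists at 2 of 7, beside 5.46%. Over the 31 clusters of the locus the shares were 10 (32.3%) and 2 (6.45%), near the background, so that short gaps were not particular to the locus. A gap shared by both H3K27ac lists was present at 2 of 7 genes and in 3 of 31 clusters, beside 17.6%. These counts at the 7 genes lay above the shares over all clusters, but they rest on few genes and were not tested. No share over all clusters was computed for a gap in a single list. The smallest gap between neighbouring peaks anywhere in a list was 222 and 173 bp in H3K27ac replicates 1 and 2 and 192 and 233 bp in H3K4me1 replicates 1 and 2, so narrower gaps could not be seen.

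**Figure D4:**
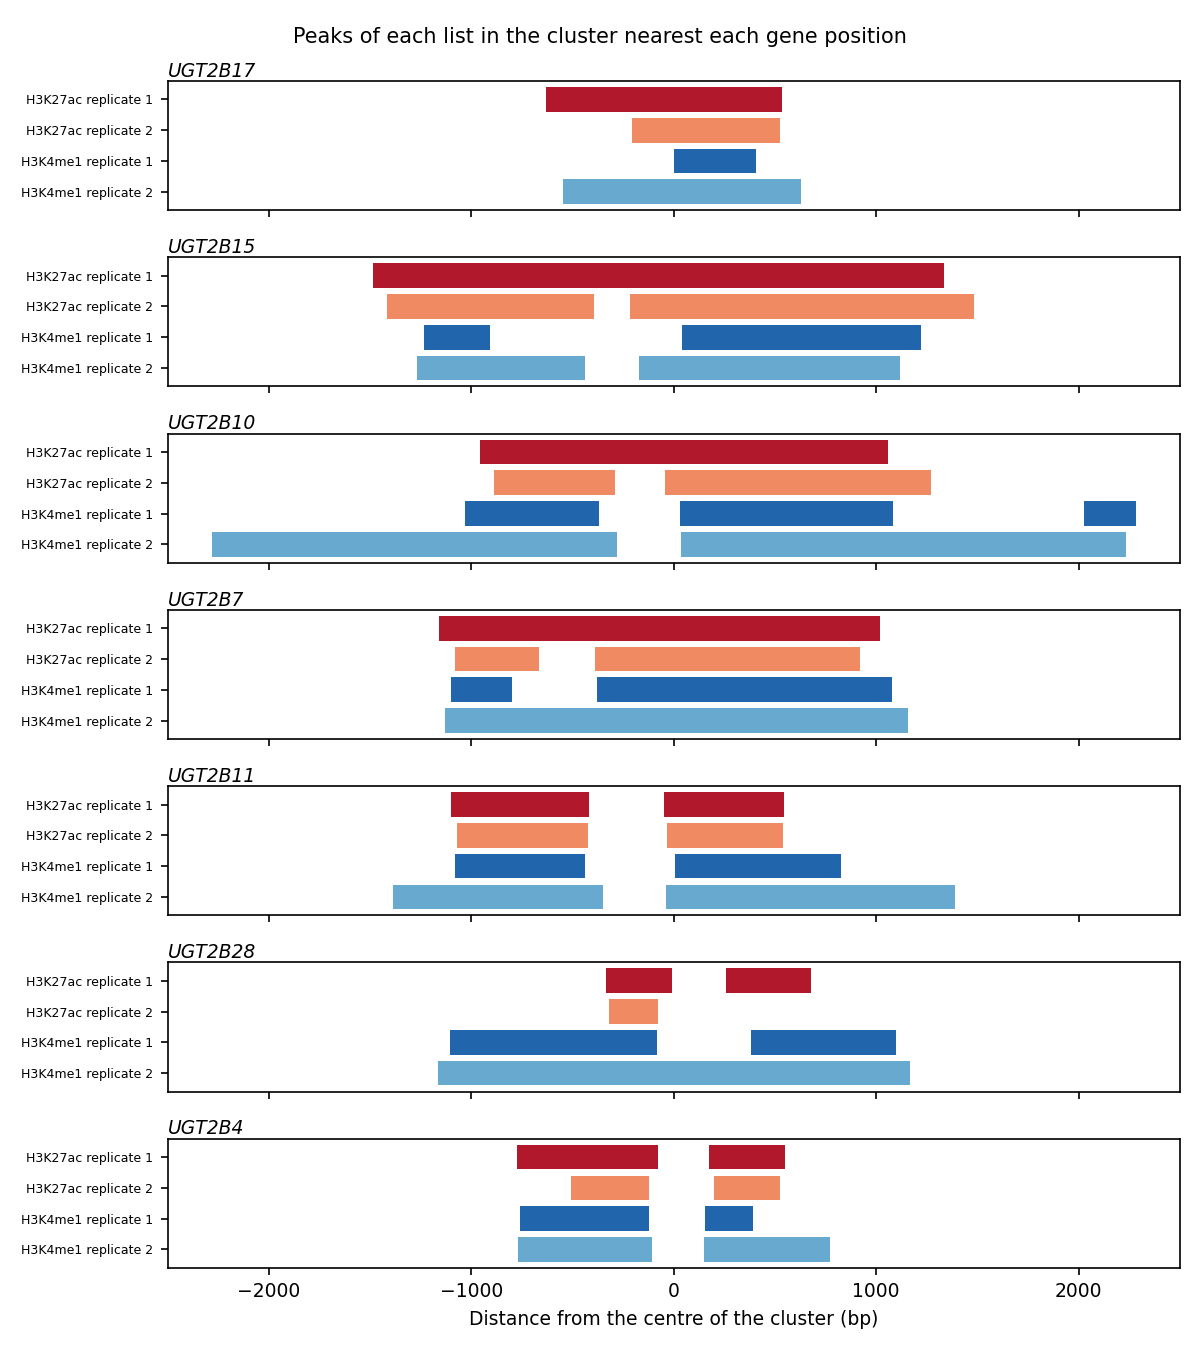
Peaks of each list (rows) in the cluster nearest each gene position, by distance from the centre of the cluster (x axis, bp). All lists are split at UGT2B11 and UGT2B4, some lists at UGT2B15, UGT2B10, UGT2B7 and UGT2B28, and no list at UGT2B17.

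H3K27ac of the locus lay both near the given positions and away from them. Of the replicated regions, 16 of 33 for H3K27ac (48.5%) and 24 of 68 for H3K4me1 (35.3%) lay within 25 kb of a gene position, in windows that make up 32.4% of the locus. By length these shares were 39.4 and 35.3%, with a region counted whole if any base lay in a window. The H3K4me1 shares were near that of the windows, and the H3K27ac shares were above it. UGT2B15 held 10.5 kb of the 23.7 kb of H3K27ac regions counted near the genes. These shares were not tested. The widest H3K27ac region of the locus, from 69596515 to 69602105, lay 60.5 kb above the upper end of UGT2B15. It had 5354 bp in replicate 1 and 5030 bp in replicate 2, and carried the widest H3K4me1 region, from 69598982 to 69602211 (3230 bp). The second, from 69770058 to 69775196, lay 90.1 kb above the position of UGT2B10, with 5071 and 4868 bp, and carried the third widest H3K4me1 region, from 69771933 to 69774765. The fourth, from 69729401 to 69732486 (2969 and 2850 bp), lay between UGT2B10 and that region. In the gene table of GRCh38.p14, the stretch between UGT2B10 and UGT2B7 also holds UGT2A3, a related enzyme gene, and pseudogenes UGT2B26P and UGT2B27P, so a region nearest to a UGT2B gene need not belong to it.

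H3K27ac regions of the locus had a median width of 1747 bp, against 1217 bp over all chromosomes used, and H3K4me1 regions one of 1053 against 944 bp. The widest peaks were not more frequent in every list. Peaks of at least 2000 bp made up 29.7% of H3K27ac replicate 1 (22.0% over the whole list) but 8.16% of replicate 2 (14.9%). They made up 8.60% of H3K4me1 replicate 2 (7.51%), and H3K4me1 replicate 1 had no peak wider than 1943 bp (2.38% of its whole list reached 2000 bp). The 25 H3K4me1 regions without replicated H3K27ac were narrower, with a median of 671 bp (308 to 1521 bp), than the 43 with it, which had 1461 bp (623 to 3230 bp). Whether width alone accounts for this difference was not tested. The second widest H3K4me1 region was nevertheless covered only in part by H3K27ac peaks. It ran from 69890761 to 69893926, about 66.1 kb below the position of UGT2B7, and held 2588 and 3069 bp in H3K4me1 replicates 1 and 2. Replicated H3K27ac lay over 17.5% of its length. The H3K27ac lists differed there, with 555 bp covered in replicate 1 and 1182 bp in replicate 2.

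At the far end of the locus, beyond UGT2B4, H3K4me1 outlasted H3K27ac. The gene table places UGT2A1 and UGT2A2 there. The last replicated H3K27ac region, from 70424281 to 70424666, had 386 and 220 bp. After it came replicated H3K4me1 regions from 70425736 to 70427129, 70449243 to 70449896, 70462188 to 70463708 and 70510217 to 70511264, and H3K27ac replicate 2 alone had 1 further peak, of 229 bp. The longest stretch of the locus without a peak of any list ran for 58.9 kb from 70364435 to 70423360, just above the UGT2B4 pair. The next ran for 58.2 kb from 69538314 to 69596514, between UGT2B15 and the widest H3K27ac region. For H3K27ac alone the longest bare stretch was 96.6 kb, from 69983192 to 70079813, which separates the regions of UGT2B7 from those of UGT2B11.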

How the data were processed

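Chromatin immunoprecipitation with sequencing gave 2 libraries for each of 2 marks. Build hg19 and 4 tools (MACS2 2.1.0, Bowtie 1.1.2, Trimmomatic 0.33 and bcl2fastq 2.17) are listed in the submitters' processing notes. For their roles, the peak threshold and the treatment of reads with several alignments, nothing is given in the sources used here. For each library 1 list of positions was deposited by the authors, unpooled, with neither heights nor read numbers, so depth is unknown. Positions are in hg19 and counted from 1. The hg19 positions of the 7 genes came with the definition of the locus, since the gene table belongs to GRCh38.p14 and served for names and gene order only. For the same reason marker genes and other genes of androgen metabolism were not used here.

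Intervals were compared in Python 3.11.15 with numpy 2.4.6 and scipy 1.17.1, where a common stretch of at least 1 bp made intervals overlap. Overlap and merging functions were tested on simulated intervals. Marks were compared over libraries with an exact permutation test, and shares have exact (Clopper-Pearson) 95% intervals. Promoters were aligned end to end with Biopython 1.88. The text names all 7 genes, each replicated region within 25 kb of their positions, the 5 widest regions of each mark and the longest bare stretch; other regions were named after their values were seen. The members and lists were chosen with earlier results of these data known. Alternatives were another overlap, common width limits, peaks of at least 500 bp, single libraries, other bounds and radii, and unions of peaks.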

Additional observations from a re-analysis of the deposited data

How the results depend on the processing

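Of 100 alternative values for 30 results, 96 held their direction and side of the threshold, stayed within 1.5 times the count, or moved by no more than the counting interval or the spread between libraries (for the rank among windows, by at most 5 percentage points). None reversed. Some of the 96 could not have changed, so this count does not measure how stable the results are. For the ratios of the marks the side of the threshold was fixed, since p could not fall below 0.33. Only their direction was free to change. Leaving out a library of the other mark kept the replicated regions at 33 for H3K27ac and 68 for H3K4me1 by construction. With peaks of at least 500 bp only, replicated H3K4me1 regions fell to 42, as fewer peaks enter. Without H3K4me1 replicate 1, H3K4me1 overlapped 100% of H3K27ac regions, and H3K27ac overlapped 49.5% of H3K4me1 regions. With the union of all peaks the latter was 50.5%. The cause of these moves was not tested.

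Leaving out each library gave ratios of H3K4me1 to H3K27ac of 1.87 to 2.47 for peak number, 1.01 to 1.63 for covered length and 0.478 to 0.854 for median width. It gave 33 to 49 H3K27ac and 68 to 93 H3K4me1 regions, and overlap shares of 91.9 to 100% and 49.5 to 64.7%. Same-numbered libraries share only a number and did not deviate together (r = -0.112 over 2240 windows). A replicate block gave ratios of 2.15, 1.28 and 0.624. Crossed numbers must give the same mean ratios by arithmetic, although they were counted among the alternatives that held. No call could change, since an exact sign-flip test over 2 pairs cannot reach p below 0.5.

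Unknown depth and separate width limits in each list bound what peak number and width can show, and 2 libraries per mark cannot reach p below 0.33.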
